A study of Mus musculus with 18 samples.

Results

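A set of 10 genes tied to axon growth and regeneration out of the 18922 in the deposited tables was followed through mouse cortex after a photothrombotic stroke. They were taken by gene symbol: Atf3, Jun and Sox11, Sprr1a, Gal and Ecel1, Gap43 and Basp1, and Rtn4 and Rtn4r. The tissue came from male C57Bl6 mice of 8 to 10 weeks that were either Trem2 wild type or Trem2 knockout, and all of them, controls included, had a stroke: 50 mg/kg Rose Bengal was given intraperitoneally and a 125 mW laser of 525 nm was shone on the cortex within a circle of 3 mm, so that the activated dye clots the vessels under the light. At 7 days after injury the brains were stained with TTC, which leaves dead tissue pale, and contralateral cortex (C), peri-infarct tissue (P) and the infarct core (I) were cut out. Each of the 6 groups of genotype and region had 3 libraries of polyadenylated RNA. The control tissue is the other hemisphere of injured mice, and no library came from uninjured mice. The sources used here do not say how the knockout allele was made.

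Axons of the peripheral nervous system regrow after injury, and those of the adult brain and spinal cord mostly do not. Injured peripheral neurons switch on transcription factors such as ATF3, JUN and SOX11, which are followed by secreted, membrane and growth cone proteins, among them galanin, SPRR1A, ECEL1, GAP43 and BASP1. In the brain, the Nogo protein encoded by Rtn4 and its receptor, encoded by Rtn4r, restrain axon growth, and reactive glia and invading immune cells can also express ATF3 and JUN.

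The stretches of DNA around the starts of 4 of these genes are shown because their transcripts were higher in lesioned tissue in at least 1 genotype. Each window runs from 250 bases before the gene start to 50 bases after it, in the 5′ to 3′ direction of the gene. The sequences come from RefSeq, assembly GRCm38.p6, and were matched by symbol for 9 of the 10 genes. No window was matched for Gap43. Capitals mark matches to the motifs described after the sequences.
Atf3, chr1:191183284-191183583, minus strand: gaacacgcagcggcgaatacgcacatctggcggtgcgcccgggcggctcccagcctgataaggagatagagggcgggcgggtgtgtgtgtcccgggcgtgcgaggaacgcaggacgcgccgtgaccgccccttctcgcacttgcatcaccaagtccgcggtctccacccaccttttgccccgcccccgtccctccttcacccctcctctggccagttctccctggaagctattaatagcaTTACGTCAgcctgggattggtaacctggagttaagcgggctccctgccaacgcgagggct
Jun, chr4:95052173-95052472, minus strand: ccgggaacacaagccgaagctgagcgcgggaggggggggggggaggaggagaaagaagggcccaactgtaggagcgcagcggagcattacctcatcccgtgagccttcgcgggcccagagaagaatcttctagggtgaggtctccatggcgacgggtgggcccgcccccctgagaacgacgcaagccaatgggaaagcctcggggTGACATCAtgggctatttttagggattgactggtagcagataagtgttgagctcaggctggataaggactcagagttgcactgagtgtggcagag
Gal, chr19:3414495-3414794, minus strand: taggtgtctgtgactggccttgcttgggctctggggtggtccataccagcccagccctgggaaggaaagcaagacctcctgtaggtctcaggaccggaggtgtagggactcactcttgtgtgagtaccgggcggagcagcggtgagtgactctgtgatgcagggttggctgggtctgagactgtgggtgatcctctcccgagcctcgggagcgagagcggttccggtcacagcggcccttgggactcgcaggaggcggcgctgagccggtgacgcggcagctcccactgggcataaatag
Sprr1a, chr3:92485832-92486131, minus strand: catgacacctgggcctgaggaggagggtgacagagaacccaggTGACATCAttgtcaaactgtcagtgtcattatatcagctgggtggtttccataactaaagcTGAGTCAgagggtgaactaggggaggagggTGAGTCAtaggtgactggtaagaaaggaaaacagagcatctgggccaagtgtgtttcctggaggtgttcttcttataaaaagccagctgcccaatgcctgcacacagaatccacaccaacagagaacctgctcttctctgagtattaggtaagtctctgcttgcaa
The AP-1 motif TGANTCA, the letters bound by dimers of JUN with FOS proteins, was searched on both strands. It occurred in the Sprr1a window at 146 and 116 bases before the start, and in 1 of the 3 windows of Rtn4, that is in 2 of the 9 genes matched. Of all 32851 windows of the same length, 7.81% held it. The cyclic AMP response element TGACGTCA was found in the windows of 0 of the 9 genes and in 1.79% of all windows. After the windows had been read, 2 related spellings were added. The first, TGACATCA, was taken from the Jun window, where it lies 45 bases before the start. It also occurred in the windows of Sprr1a and Sox11, and in 3.62% of all windows. The second, TTACGTCA, was taken from the Atf3 window, where it begins 10 bases before the start, and occurred in 0.499% of all windows. The Gal window held none of these letters. The matches do not overlap each other, and a match describes the letters only.

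Library totals lay between 16993978 and 17691801 counts in 17 libraries and at 18713770 in the core library of wild-type replicate 3. Trem2 itself ranged from 20.5 to 920.1 CPM (normalised counts, scaled to the library size after TMM) over the wild-type libraries and from 0.337 to 8.24 CPM over the knockout libraries, lower in each knockout region than in the same wild-type region. Whether the remaining reads fall outside the deleted stretch is not known from a count per gene. Wild-type core replicate 3 stood apart. A share of 15.5% of its counts fell on its 10 top genes, compared with 3.27% to 5.38% elsewhere. The summed level of 6 pan-neuronal markers (Rbfox3, Snap25, Syt1, Nefl, Nefm and Eno2) was 13.6 CPM there, with none at 0. The other wild-type core libraries gave 4219 and 3815 CPM, and wild-type contralateral libraries 6197 to 7440 CPM. Its 8 microglia and macrophage markers summed to 5094 CPM against 1597 and 1663 CPM. Markers of fibroblasts summed to 61.6 to 103.6 CPM in wild-type contralateral and to 1528 to 4757 CPM in wild-type core libraries. Results in core tissue that turn on that library are therefore also given without it, when the wild-type core rests on 2 libraries. In those 2, excitatory neuron markers summed to 91.0% and 87.0% of the wild-type contralateral mean. Knockout core libraries stood at 46.2% to 64.7% of the knockout mean. Pan-neuronal markers stood at 63.5% and 57.4% against 49.3% to 49.9%, and inhibitory ones at 51.7% and 44.0% against 35.4% to 64.7%. How much surviving tissue each core library held was not tested. Since the 6 groups share 1 estimate of the spread per gene, leaving out wild-type core replicate 3 also changes the tests between other groups. In bulk tissue, fewer cells of a type and less RNA per cell cannot be told apart.

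Compared per transcript length, in TPM (transcript abundance scaled to length and library) averaged over the 6 groups, Basp1 (569.9) and Rtn4 (395.4) were the most abundant of the 10 transcripts and Gap43 (267.9) came next. Jun (56.8), Rtn4r (49.6) and Atf3 (21.0) were intermediate. Gal (6.58), Sox11 (4.01), Ecel1 (3.09) and Sprr1a (0.697) were low. The transcripts of the growth cone proteins and of Nogo were thus abundant in every group, and the peptide and protease transcripts were scarce.

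**Figure D1:**
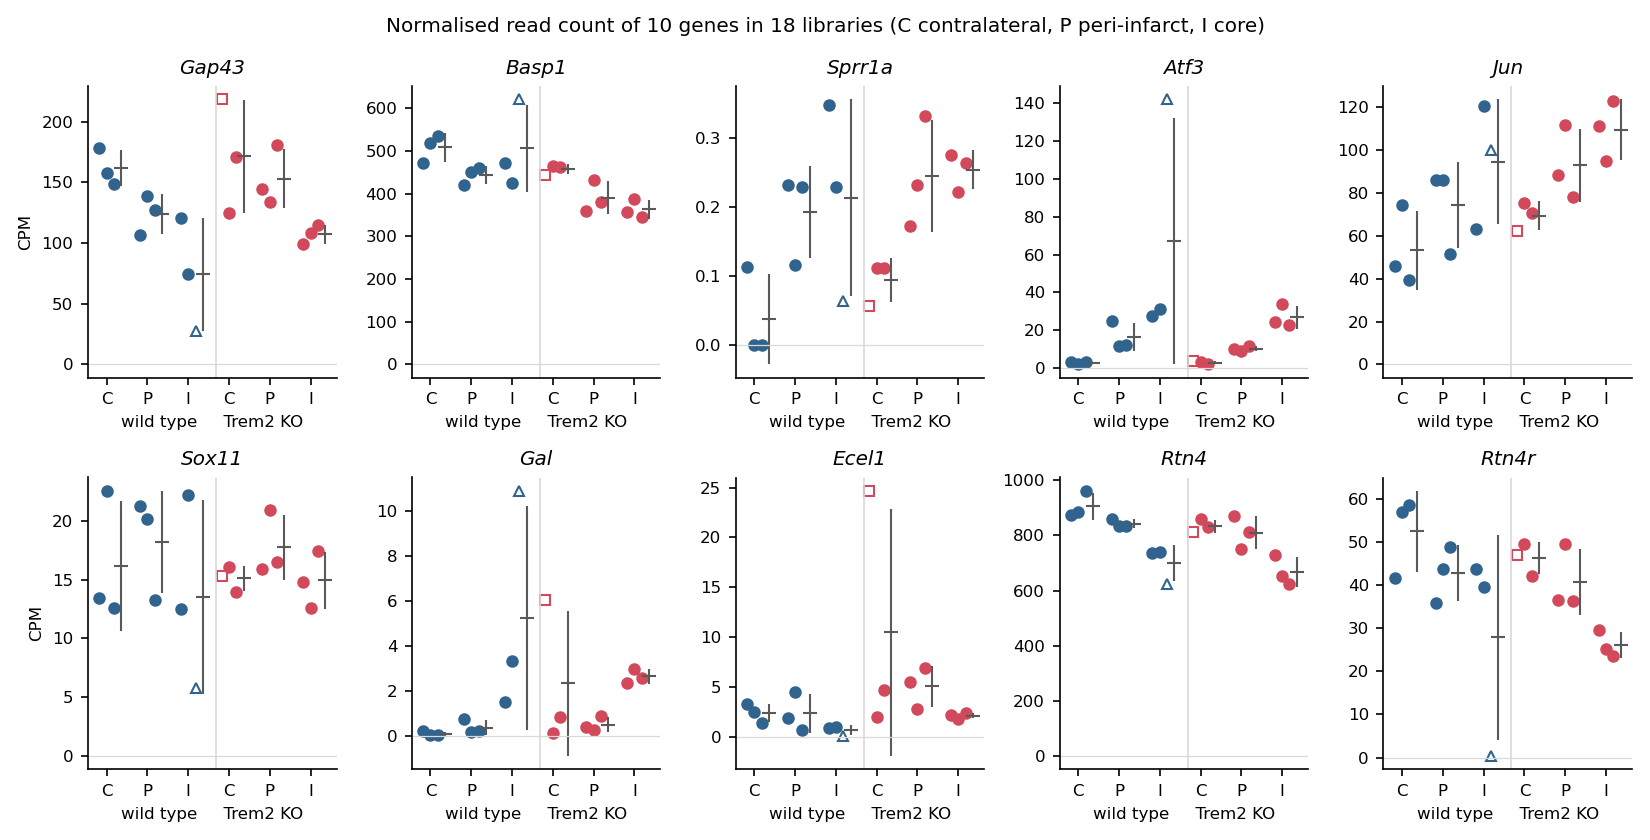
Normalised read count (CPM, linear axis) of the 10 genes in each library, by genotype and region (C contralateral, P peri-infarct, I core), with the group mean and SD (n = 3) as a grey cross bar. The open triangle is wild-type core replicate 3 and the open square is knockout contralateral replicate 1. Atf3 lies at 1.85 to 3.45 CPM in contralateral libraries and at 8.99 CPM or more in all lesioned ones.

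Atf3, a stress-induced transcription factor of the ATF/CREB family and a common marker of injured neurons, was called in 4 of the 6 regional comparisons. In wild-type tissue its levels were 2.94, 1.88 and 3.00 CPM contralaterally, 24.7, 11.4 and 12.3 CPM in the peri-infarct zone and 27.5, 31.3 and 142.2 CPM in the core. In knockout tissue they were 3.45, 3.04 and 1.85 CPM contralaterally, 9.90, 8.99 and 11.4 CPM in the peri-infarct zone and 24.3, 33.7 and 22.4 CPM in the core. All contralateral libraries of both genotypes lay below all lesioned ones, and within each genotype all core libraries lay above all peri-infarct libraries.

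Against contralateral tissue, Atf3 rose by 4.68 ± 0.61 (log2 fold change ± SE) in the wild-type core (edgeR quasi-likelihood test, Benjamini-Hochberg adjusted p = 0.00012) and by 3.27 ± 0.58 in the knockout core (adjusted p = 0.0010). When core replicate 3 was left out, the wild-type rise was 3.49 ± 0.33 (adjusted p = 1.5e-06) and that in the knockout core 3.26 ± 0.31. In the wild-type peri-infarct zone it rose by 2.63 ± 0.57 (adjusted p = 0.028). Of the libraries left out in turn, contralateral replicates 1, 2 and 3 and peri-infarct replicates 1 and 3 each took that peri-infarct call away (adjusted p = 0.109, 0.164, 0.122, 0.105 and 0.0726), at values of 2.18 to 2.82 over all those left out. Without these libraries 1, 0, 4, 18 and 0 genes passed in all, in that order, against 502 with 18 libraries. In the knockout peri-infarct zone Atf3 differed by 1.86 ± 0.56, which missed the threshold (adjusted p = 0.0805) and passed it without wild-type core replicate 3 (1.79 ± 0.31, adjusted p = 0.00098). The microglia and macrophage markers that were higher in the same tissue are given with the core comparison, and their part in the levels of Atf3 was not tested.

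The step from the peri-infarct zone to the core was also measured. In wild-type tissue it was 2.06 ± 0.53 (adjusted p = 0.034), and by 0.90 ± 0.29 without wild-type core replicate 3 (adjusted p = 0.088). This call was also lost without peri-infarct replicate 1, 2 or 3 (adjusted p = 0.0611, 0.147 and 0.108). Without these libraries 98, 0 and 0 genes passed in all, against 1995 with 18 libraries. In knockout tissue the step was 1.41 ± 0.53 (adjusted p = 0.178) and, without wild-type core replicate 3, 1.47 ± 0.27 (adjusted p = 0.00084).

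Jun encodes a subunit of AP-1 that is phosphorylated by JNK and is needed for the regrowth of injured peripheral axons. It measured 46.1, 74.3 and 39.3 CPM in wild-type contralateral, 86.2, 86.2 and 51.4 CPM in peri-infarct and 63.1, 120.5 and 100.2 CPM in core libraries. In the knockout the levels were 62.4, 75.3 and 70.9, then 88.6, 111.8 and 78.2, then 111.3, 94.8 and 122.9 CPM. The wild-type groups overlapped, and the knockout contralateral libraries lay below all lesioned ones.

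Jun rose by 0.83 ± 0.28 in the wild-type core (adjusted p = 0.029). The call was lost without wild-type core replicate 3 (0.78 ± 0.30, adjusted p = 0.054), without core replicate 2 (0.62, adjusted p = 0.091) and without contralateral replicate 1 or 3 (0.74 and 0.64, adjusted p = 0.0933 and 0.116). It was also lost with only the groups compared (0.82, adjusted p = 0.232), where 0 of 14750 genes passed. On the TPM scales it was lost as well, at 0.43 and 0.44 (limma, adjusted p = 0.211 and 0.209 with 1 and 0.1 added). In the knockout core the difference was 0.66 ± 0.28 (adjusted p = 0.101), and 0.65 ± 0.27 without wild-type core replicate 3 (adjusted p = 0.054). In peri-infarct tissue it was 0.49 ± 0.28 in wild type and 0.42 ± 0.27 in the knockout, neither of which passed. These differences were smaller in size than those of Atf3 in the same comparisons.

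Sox11, a transcription factor of developing neurons, passed the threshold in none of the regional comparisons with 18 libraries. Between wild-type core and peri-infarct zone it differed by -0.43 ± 0.36, and without wild-type core replicate 2 it passed at -0.99 (edgeR, adjusted p = 0.041). Outside wild-type core replicate 3, at 5.77 CPM, its levels lay between 12.6 and 22.6 CPM. Its difference in the core was -0.26 ± 0.36 in wild type, 0.09 ± 0.28 without wild-type core replicate 3, and -0.02 ± 0.36 in the knockout.

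Gal encodes galanin, a neuropeptide that injured sensory and motor neurons make in quantity. In wild-type tissue it measured 0.226, 0.059 and 0.059 CPM contralaterally, 0.758, 0.174 and 0.230 CPM in the peri-infarct zone and 1.51, 3.33 and 10.9 CPM in the core. In the knockout the levels were 6.04, 0.169 and 0.843 CPM contralaterally, 0.403, 0.290 and 0.886 CPM in the peri-infarct zone and 2.38, 3.01 and 2.59 CPM in the core. The core libraries of both genotypes lay above all peri-infarct libraries, and 1 knockout contralateral library, replicate 1, exceeded the knockout core.

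In wild-type core tissue Gal rose by 5.42 ± 1.24 over the contralateral level (adjusted p = 0.0040) and by 4.30 ± 1.18 without wild-type core replicate 3 (adjusted p = 0.0097). Against the peri-infarct zone it was higher by 3.73 ± 1.07 (adjusted p = 0.0399). That call was lost without wild-type core replicate 3 (2.65 ± 1.00, adjusted p = 0.140) and without peri-infarct replicate 1, 2 or 3 (adjusted p = 0.0671, 0.151 and 0.122). Without these libraries 828, 98, 0 and 0 genes passed in all, in that order, against 1995 with 18 libraries. In the knockout the core differed from contralateral tissue by 0.18 ± 0.91 (adjusted p = 0.89), and by 2.38 (adjusted p = 0.097) without contralateral replicate 1. The response of Gal in the core differed between genotypes by -5.24 ± 1.55, with an adjusted p of 0.98 over all genes. Without knockout contralateral replicate 1 that value was -3.04 and without wild-type core replicate 3 it was -4.12 (adjusted p = 0.997 and 0.43).

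Ecel1, a membrane protease of injured neurons also known as DINE, was high in that same library. Its knockout contralateral levels were 24.7, 2.03 and 4.72 CPM, its knockout peri-infarct levels 5.53, 2.84 and 6.87 CPM and its knockout core levels 2.16, 1.84 and 2.38 CPM. Wild-type levels were 3.28, 2.46 and 1.41 CPM contralaterally, 1.92, 4.46 and 0.691 CPM in the peri-infarct zone and 0.930, 1.03 and 0.0648 CPM in the core. The core mean was the lowest of the 3 regions in each genotype, and all wild-type core libraries lay below all wild-type contralateral ones.

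The core differed from contralateral tissue in Ecel1 by -1.79 ± 0.94 in wild type (adjusted p = 0.135), or -1.28 ± 1.00 without wild-type core replicate 3 (adjusted p = 0.33), and by -2.30 ± 0.86 in the knockout (adjusted p = 0.070). The knockout value was -2.30 ± 0.77 and passed without wild-type core replicate 3 (adjusted p = 0.020), passed without knockout contralateral replicate 2 (-2.79, adjusted p = 0.032), and was -0.67 without knockout contralateral replicate 1 (adjusted p = 0.55). In that library 7 markers of striatal projection neurons summed to 795.4 CPM, against 396.0 and 468.6 CPM in the other 2 knockout contralateral libraries, with none at 0 in any of the 3. Wild-type peri-infarct replicate 2 summed to 670.0 CPM, with Gal at 0.174 and Ecel1 at 4.46 CPM. The knockout peri-infarct libraries summed to 503.0 to 609.7 CPM, with Gal at 0.290 to 0.886 and Ecel1 at 2.84 to 6.87 CPM. The part of the tissue sampled in these levels of Gal and Ecel1 was not tested.

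Sprr1a, a small proline-rich protein first known from skin and strongly induced in regenerating sensory neurons, was near the limit of detection and failed the filter on low counts. Its counts were 2, 0 and 0 in wild-type contralateral, 4, 2 and 4 in peri-infarct and 6, 4 and 1 in core libraries. In the knockout they were 1, 2 and 2, then 3, 4 and 6, then 5, 4 and 5. A count of 0 allows up to 3 counts, or 0.176 CPM in these libraries. Knockout lesioned libraries all exceeded the contralateral ones. In wild type the core library of replicate 3 fell below 1 contralateral library, and the peri-infarct library of replicate 2 equalled it in counts.

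Over both genotypes Sprr1a averaged 0.227 CPM in 12 lesioned and 0.0659 CPM in 6 contralateral libraries, and 0.242 CPM in the 11 lesioned libraries other than wild-type core replicate 3. These tissues were pooled after the counts had been seen, and the values are a description. The ratio of lesioned to contralateral CPM was 5.34 in wild type, from 21 against 2 counts, with an exact 95% interval of 1.30 to 47.0. It was 2.65 in the knockout, from 27 against 5 counts, with an interval of 1.01 to 8.83. The intervals cover counting error only. Of the 5 keratinocyte markers, of which Krt5 and Krt14 are at 0 in all core libraries, the summed level lay between 2.72 and 8.90 CPM in the wild-type core and between 10.4 and 11.9 CPM contralaterally.

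Gap43 and Basp1 encode abundant growth cone proteins that bind calmodulin and sit under the axonal membrane. Gap43 measured 178.1, 157.9 and 148.8 CPM in wild-type contralateral, 106.5, 138.5 and 127.1 CPM in peri-infarct and 120.3, 74.2 and 27.8 CPM in core libraries. In the knockout it measured 218.5, 125.1 and 170.8 CPM, then 144.7, 133.9 and 180.4 CPM, then 99.2, 107.9 and 114.6 CPM. In both genotypes every core library lay below every contralateral library.

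Gap43 fell by 1.12 ± 0.36 on the log2 scale in the wild-type core (adjusted p = 0.025), and by 0.74 ± 0.23 without wild-type core replicate 3 (adjusted p = 0.018). The call was lost without contralateral replicate 1 or 2 (adjusted p = 0.0666 and 0.0523). In the knockout core it differed by -0.68 ± 0.36 (adjusted p = 0.193), and by -0.68 ± 0.20 without wild-type core replicate 3, which passed (adjusted p = 0.0088). Between wild-type core and peri-infarct zone it differed by -0.74 ± 0.36 (adjusted p = 0.161), and without core replicate 1 it passed at -1.25 (adjusted p = 0.013). In peri-infarct tissue it differed by -0.38 ± 0.36 in wild type and by -0.16 ± 0.36 in the knockout, and neither passed.

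Basp1 did not follow this order. It measured 471.1, 518.1 and 536.1 CPM in wild-type contralateral, 421.0, 450.5 and 460.0 CPM in peri-infarct and 472.3, 426.2 and 621.5 CPM in core libraries. In the knockout it measured 443.6, 465.5 and 462.0 CPM, then 358.9, 433.0 and 380.7 CPM, then 357.0, 386.7 and 345.7 CPM. Wild-type core replicate 3, the library with hardly any neuronal marker RNA, had the highest CPM of all 18, and on the TPM scale the lowest of the 9 wild-type libraries (473.0 against 530.1 or more).

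The core difference in Basp1 was -0.01 ± 0.14 in wild type and -0.18 ± 0.09 without that library (adjusted p = 0.13). On the TPM scale it was -0.42 and passed (limma, adjusted p = 0.0038). The 2 scalings differ there: the median over all tested genes in this comparison was -0.34 on the log2(TPM + 1) scale and -0.03 with TMM, and the called genes were 3110 higher and 6220 lower on the first and 4456 higher and 1770 lower on the second. In the knockout core Basp1 differed by -0.33 ± 0.14 (adjusted p = 0.113), and by -0.34 ± 0.08 without wild-type core replicate 3, which passed (adjusted p = 0.0027). In the knockout peri-infarct zone the values were -0.23 ± 0.14 and, without that library, -0.30 ± 0.08 (adjusted p = 0.019).

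Rtn4 encodes the reticulon Nogo, whose longest form on oligodendrocytes and neurons stops growth cones. It measured 872.9, 883.3 and 962.1 CPM in wild-type contralateral, 860.2, 833.2 and 834.8 CPM in peri-infarct and 737.9, 739.1 and 622.5 CPM in core libraries. In the knockout it measured 811.7, 859.0 and 828.8 CPM, then 868.7, 749.1 and 811.5 CPM, then 728.8, 653.0 and 621.9 CPM. The core libraries of each genotype lay below all others of that genotype, by a small margin.

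Rtn4 fell by 0.37 ± 0.13 in the wild-type core (adjusted p = 0.035) and by 0.30 ± 0.08 without wild-type core replicate 3 (adjusted p = 0.0089). The call was lost without contralateral replicate 1, 2 or 3 (adjusted p = 0.0596, 0.0667 and 0.0923) and with no filter on low counts (adjusted p = 0.057). It was also lost with only the groups compared (adjusted p = 0.367), where 0 of 14750 genes passed, and with the replicate number as a block (-0.38, adjusted p = 0.0703). In the knockout core the difference was -0.32 ± 0.13 (adjusted p = 0.093), and -0.33 ± 0.07 without wild-type core replicate 3, which passed (adjusted p = 0.0014). Rtn4 had counts that were not whole in 18 libraries and Rtn4r in 17, so these counts are estimates and their levels are less certain. Whether part of their reads were shared with other features was not tested.

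Rtn4r encodes the Nogo receptor, a lipid-anchored protein of neurons that also binds the myelin proteins MAG and OMG. It measured 41.6, 57.0 and 58.7 CPM in wild-type contralateral, 35.8, 43.7 and 48.8 CPM in peri-infarct and 43.7, 39.4 and 0.389 CPM in core libraries. In the knockout it measured 47.1, 49.5 and 42.1 CPM, then 36.5, 49.6 and 36.2 CPM, then 29.5, 25.1 and 23.6 CPM. The knockout core lay below all other knockout libraries, and in wild-type core tissue replicate 1 lay within the contralateral range, replicate 2 just below it and replicate 3 far below.

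With 18 libraries Rtn4r passed in no comparison. Its core difference was -0.91 ± 0.77 in wild type (adjusted p = 0.33) and -0.83 ± 0.77 in the knockout (adjusted p = 0.44). The SE shrank when wild-type core replicate 3 was left out. The values were then -0.34 ± 0.17 in wild type (adjusted p = 0.14) and -0.84 ± 0.16 in the knockout, where it passed (adjusted p = 0.00037).

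**Figure D2:**
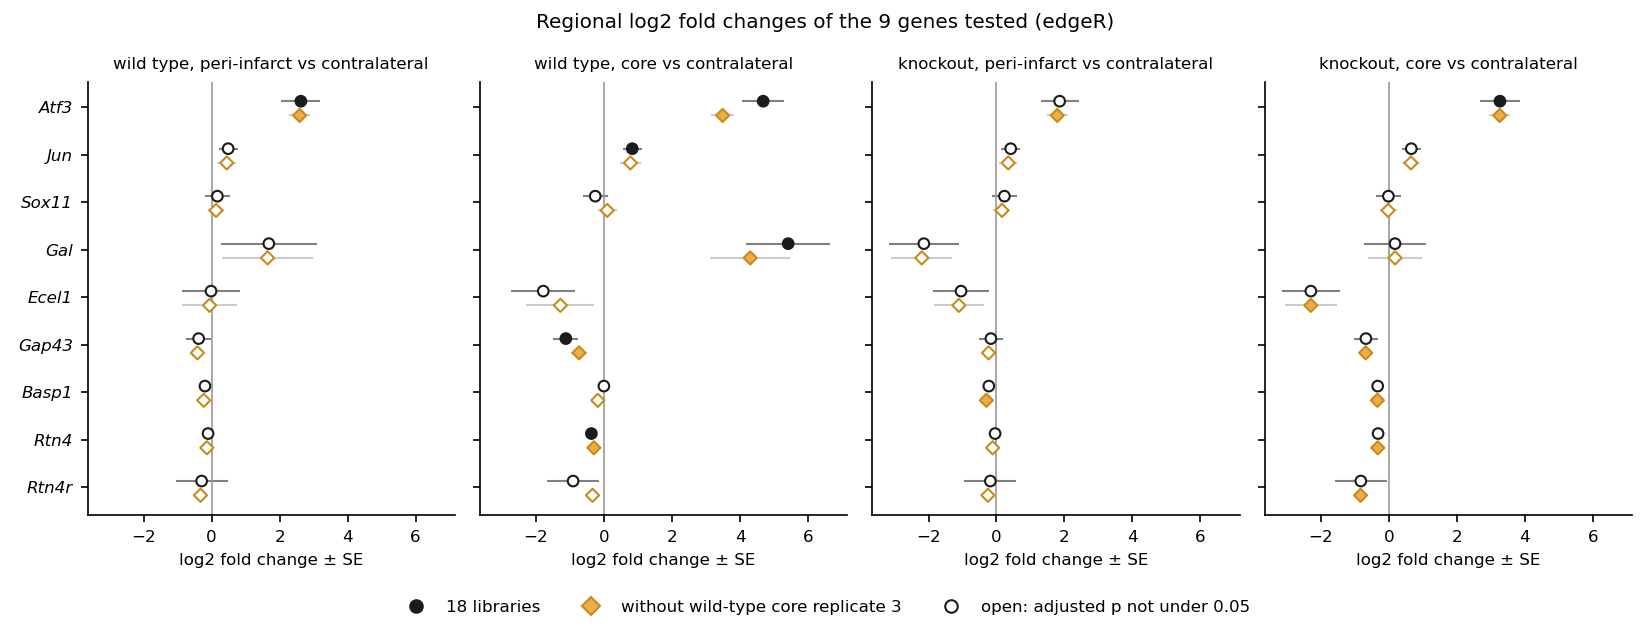
Log2 fold change ± SE against contralateral tissue of the 9 genes that passed the filter, in peri-infarct and core tissue of each genotype (n = 3 libraries a group). Circles use 18 libraries and diamonds leave out wild-type core replicate 3. Filled symbols have an edgeR adjusted p under 0.05. Atf3 lies to the right of 0 in all 4 panels, and the knockout core gains filled diamonds for 5 genes that lie below 0.

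Counted together, 9 of the 10 genes passed the filter on low counts. Between the wild-type core and contralateral tissue 5 of the 9 passed (Atf3, Gal and Jun higher, Gap43 and Rtn4 lower), where 40.6% of all 15329 tested genes passed, 29.1% higher and 11.5% lower. The median log2 fold change of the 9 was -0.26 against -0.03 for all tested genes. Leaving out wild-type core replicate 3, 4 passed (2 higher and 2 lower), where 40.2% of genes did, 23.6% higher and 16.6% lower. The count was 2, 3 and 3 without contralateral replicates 1, 2 and 3, where 4801, 4614 and 4426 genes passed in all. Such counts do not set the members apart from the other genes.

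In knockout core tissue 1 of the 9 passed (Atf3), where 23% of tested genes did, 19.7% higher and 3.31% lower. The count was 2 without contralateral replicate 2, where 2578 genes passed in all. Leaving out wild-type core replicate 3, 6 passed (Atf3 higher, and Gap43, Basp1, Ecel1, Rtn4 and Rtn4r lower), where 57.4% of genes did, 29.6% higher and 27.8% lower. The median of the 9 was -0.32 with 18 libraries and -0.33 without that library, against medians of all tested genes of -0.01 and -0.02.

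In the peri-infarct zone 1 of the 9 passed in wild type (Atf3), where 3.27% of genes did, nearly all of them higher (3.27%, against 0.00652% lower). Leaving out wild-type core replicate 3, the count was again 1, where 19.5% did (14.2% higher and 5.34% lower). It was 0 without contralateral replicate 1, 2 or 3 or peri-infarct replicate 1 or 3, where 1, 0, 4, 18 and 0 genes passed in all. In the knockout 0 passed, where 4.48% of genes did (4.42% higher and 0.0522% lower). In that comparison 1 member had an unadjusted edgeR p under 0.05. DESeq2 called 1 and limma-voom 0, where 1118 and 287 genes passed in all. Without wild-type core replicate 3 edgeR called 2 (Atf3 higher and Basp1 lower), where 21.4% of genes passed, 13.7% higher and 7.61% lower.

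Between the core and the peri-infarct zone 2 passed in wild type (Atf3 and Gal, both higher), where 13% of genes did, 12.3% higher and 0.678% lower. With edgeR 0 passed without wild-type core replicate 3, where 5.37% of genes did (4.88% higher and 0.486% lower) and 2 members had an unadjusted p under 0.05. The count was also 0 without peri-infarct replicate 1, 2 or 3, where 98, 0 and 0 genes passed in all. In the knockout 0 members and 0% of genes passed, with 2 members at an unadjusted edgeR p under 0.05, 1 called by DESeq2 and 0 by limma-voom. DESeq2 and limma-voom called 895 and 24 genes there in all. Without wild-type core replicate 3, edgeR called 4 (Atf3 and Gal higher, Rtn4 and Rtn4r lower), where 40.1% of genes passed, 24.3% higher and 15.8% lower. The comparisons of 1 genotype share their libraries and are not independent of each other.

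The study's genotypes differ in Trem2, a receptor of microglia and macrophages. With 18 libraries edgeR called 0 of the 9 genes between knockout and wild type in contralateral, peri-infarct or core tissue, or in the mean over the 3 regions. Of all tested genes 0.00652%, 0.00652%, 0.013% and 0.228% passed there. Members at an unadjusted p under 0.05 numbered 2, 0, 2 and 2. Leaving out wild-type core replicate 3, the calls were 0, 0, 0 and 1, where 0.0389%, 0.117%, 3.06% and 7.46% of genes passed. DESeq2 called 0, 0, 0 and 2, and limma-voom 0 in each. Over all genes DESeq2 called 13, 17, 91 and 420, and limma-voom 0, 1, 2 and 24. For the difference between genotypes of the peri-infarct and of the core response, edgeR, DESeq2 and limma-voom called 0 members, edgeR called 0% of all genes, and 1 member in each, Gal, had an unadjusted p under 0.05.

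In the mean over regions Basp1 was lower in the knockout by -0.27 ± 0.08 (adjusted p = 0.205). Without wild-type core replicate 3 it was the 1 member called, at -0.20 ± 0.05 (adjusted p = 0.024), and DESeq2 called it with 18 libraries at -0.28 (adjusted p = 0.029). In core tissue all 3 knockout libraries of Basp1 lay below all 3 wild-type libraries, by -0.48 ± 0.14 (adjusted p = 0.395) and by -0.29 ± 0.09 without that library (adjusted p = 0.104). On the TPM scale the mean difference was -0.18, in the same direction.

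Ecel1 was higher in the knockout by 1.62 ± 0.51 in the mean over regions (adjusted p = 0.217; DESeq2 1.63, adjusted p = 0.0425), and by 1.08 without knockout contralateral replicate 1 (edgeR adjusted p = 0.385). Atf3 in the core differed by -1.32 ± 0.52 (adjusted p = 0.395) and by -0.11 ± 0.29 without wild-type core replicate 3, so that the lower knockout mean rested on that library. Rtn4r in the core differed by -0.10 ± 0.77 (adjusted p = 0.98) and by -0.65 ± 0.17 without it (adjusted p = 0.056). In limma-voom and on the TPM scale the same difference was positive, at 1.40, 1.11 and 1.67 (TPM with 1 and with 0.1 added), so no direction is given for Rtn4r. The median over all genes in that comparison was 0.22 on the log2(TPM + 1) scale and -0.0080 with TMM. A p that misses the threshold does not show that the genotypes are alike.

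The members lay far apart in wild-type core replicate 3, whose pan-neuronal marker sum was 0.205% of the wild-type contralateral mean. Against that same mean Rtn4r stood at 0.742%, Gap43 at 17.2% and Sox11 at 35.6%. Rtn4 stood at 68.7% and Basp1 at 122.2%, Jun at 188.3% and Atf3 at 5464%. These percents are of CPM and depend on the scaling. On the TPM scale Rtn4r stood at 0.404%, Gap43 at 9.34%, Sox11 at 19.6%, Rtn4 at 43.6%, Basp1 at 66.8%, Jun at 103.1% and Atf3 at 2991%, so that Basp1 lay below 100%. In this library the Nogo receptor transcript was under 1% of its contralateral level on both scales, and the transcripts of Nogo and Basp1 were not. In CPM its summed oligodendrocyte markers stood at 12.1%, astrocyte markers at 14.7% and microglia and macrophage markers at 1344%. The part of these cells in the member levels was not tested.

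In the 3 knockout core libraries the pan-neuronal sum was 49.3% to 49.9% of the knockout contralateral mean. Rtn4r stood at 51.1% to 63.8% there, Gap43 at 57.8% to 66.8%, Basp1 at 75.6% to 84.6% and Rtn4 at 74.6% to 87.5%. All 6 pan-neuronal markers passed as lower in the knockout core without wild-type core replicate 3, and 0 of 6 did with it. Of all tested genes 27.8% and 3.31% did. The 8 microglia and macrophage markers all passed as higher in the core of both genotypes, where 29.1% of all tested genes did in wild type and 19.7% in the knockout. Their sum went from 351.1 to 396.1 CPM in wild-type contralateral to 1597 to 5094 CPM in wild-type core tissue. In the knockout it went from 286.5 to 367.4 CPM to between 1211 and 1823 CPM, with none of the markers at 0. The part of cell makeup in the member results was not tested.

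**Figure D3:**
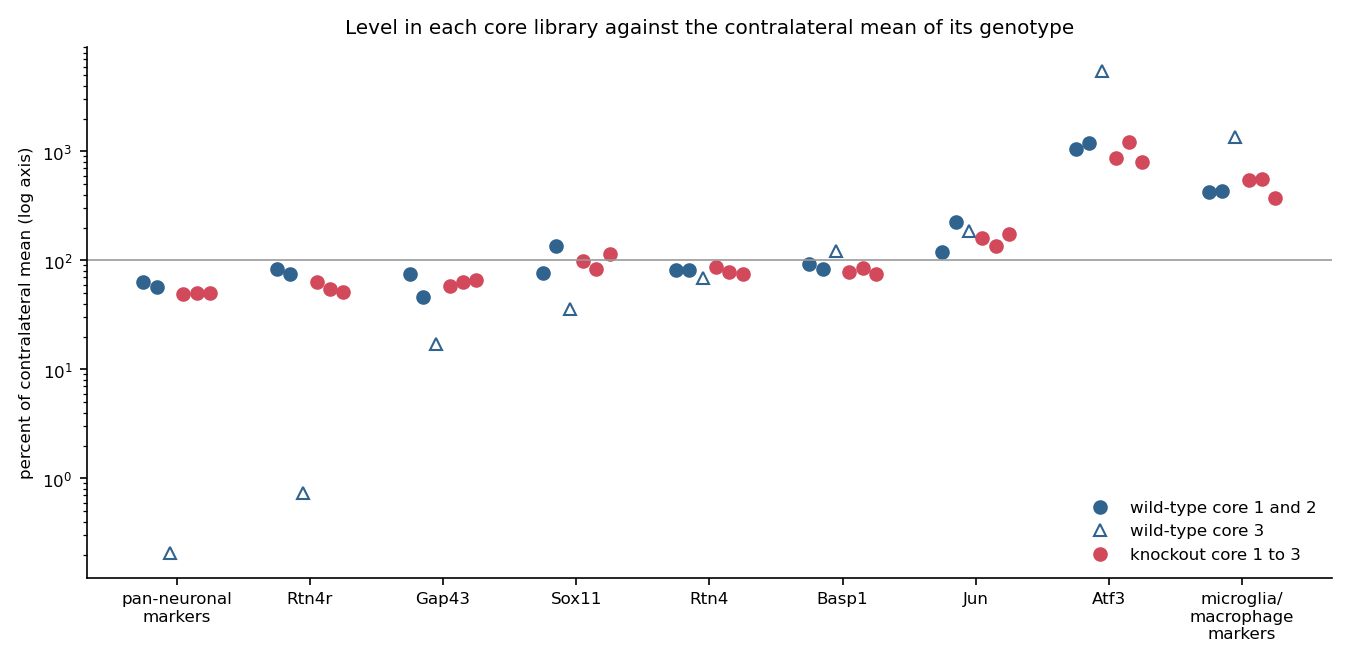
Level of 7 of the genes, and of the summed pan-neuronal and the summed microglia and macrophage markers, in each core library as a percent of the contralateral mean of its genotype (CPM, log axis, the line marks 100). The open triangle is wild-type core replicate 3, in which the pan-neuronal markers stand at 0.205% and Rtn4r at 0.742% while Basp1 stands at 122.2%, or at 66.8% if TPM is used.

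The levels of other genes across libraries show which transcripts each member went with. Over 18 libraries the genes whose log2 CPM was most like that of Atf3, among 13472 genes averaging 1 or more on that scale, were Tagln2 (Pearson r = 0.995), Ucp2 (0.995) and Mcm3 (0.994), and the same 3 led without wild-type core replicate 3. Rtn4r was most like Shank2 (0.998), Apba2 (0.998) and Sprn (0.998), and without that library like Gas7 (0.972), Trak1 (0.970) and Dlgap2 (0.970). Shank2 and Apba2 encode synaptic proteins.

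Gap43 was most like Rtl8c (0.979) and Cd200 (0.974), Jun like Rreb1 (0.915), Ehd1 (0.911) and Ccnl2 (0.892), and Ecel1 like Plppr1 (0.950), Dach1 (0.925) and Klhl13 (0.914). Basp1 was most like Nab2 (0.929), Psme3 (0.909) and Klf10 (0.894), Rtn4 like Rrp12 (0.944), Cul3 (0.941) and Nptn (0.940), Sox11 like Tle1 (0.940), Slc26a4 (0.929) and Pcdh20 (0.929), and Gal like Isoc1 (0.899), Stx5a (0.879) and Ppil2 (0.869). Without wild-type core replicate 3 the leading gene changed for Gap43 (Ccdc85c, 0.941), Basp1 (Grk2, 0.942), Jun (Ehd1, 0.957), Sox11 (Igfbpl1, 0.921), Gal (Stx5a, 0.902) and Rtn4 (Serinc1, 0.952). The libraries share region and depth, so these are descriptions.

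Members with the same kind of role correlated to different degrees across libraries. Gap43 and Basp1 correlated at -0.32 over 18 libraries and at 0.31 without wild-type core replicate 3. Rtn4 and Rtn4r correlated at 0.62 and 0.77, and Atf3 and Jun at 0.58 in both sets. Gap43 and Ecel1 correlated at 0.84 and 0.72.

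Beyond the members, the genes of the same pathways were counted from lists. Of 20 tested injury-response transcription factors, 6 rose and 2 fell in the wild-type core, where 29.1% of all tested genes rose and 11.5% fell. Stat3, which carries signals of the interleukin 6 family, rose by 1.14 ± 0.14 (adjusted p = 0.00011), Myc by 2.21 ± 0.35 (adjusted p = 0.00034) and Sox4 by 1.01 ± 0.16 (adjusted p = 0.00039). The rises were 0.89, 1.55 and 0.82 when wild-type core replicate 3 was left out. Then 6 genes rose and 4 fell, where 23.6% of all tested genes rose and 16.6% fell. The knockout core had 6 rises and 0 falls, led by Stat3 (1.17 ± 0.14), Cebpd (1.82 ± 0.25) and Sox4 (1.07 ± 0.16). Of all tested genes 19.7% rose and 3.31% fell there. Without wild-type core replicate 3, 7 rose and 4 fell in the knockout core, where 29.6% and 27.8% of all tested genes did. In the peri-infarct zone Stat3 rose in both genotypes, by 0.57 ± 0.14 in wild type and 0.79 ± 0.14 in the knockout, and Sox4 and Cebpd rose in the knockout, by 0.67 ± 0.16 and 0.96 ± 0.25.

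Between the wild-type peri-infarct zone and core, 6 of the 20 rose with 18 libraries, where 12.3% of all tested genes did. Without wild-type core replicate 3, 1 rose (Stat3, 0.36), where 4.88% did. With 18 libraries Stat3 was higher by 0.57 ± 0.14, Junb by 0.93 ± 0.25 and Klf6 by 0.86 ± 0.24. Junb encodes a partner of AP-1 like Jun. The median over the 20 genes in the wild-type core was -0.0037, against -0.03 for all tested genes. Between the knockout peri-infarct zone and core 0 of the 20 passed with 18 libraries, where 0% of all tested genes did. Without wild-type core replicate 3, 9 rose and 3 fell there, where 24.3% and 15.8% of all tested genes did.

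Of 17 tested effectors known from peripheral nerve regeneration, 11 rose in the wild-type core and 10 in the knockout core, where 29.1% and 19.7% of all tested genes rose, and 0 fell. Cd44, a hyaluronan receptor, rose by 3.40 ± 0.41 in wild type and 3.62 ± 0.41 in the knockout, and Igf1, a growth factor, by 4.49 ± 0.54 and 3.77 ± 0.53. Anxa2, a membrane-binding annexin, rose by 4.44 ± 0.56 in the wild-type core and Socs3, an inhibitor of STAT3 signalling, by 3.35 ± 0.40 in the knockout core. Leaving out wild-type core replicate 3, 10 rose in wild type, where Cd44 was at 2.59, Igf1 at 3.45 and Anxa2 at 3.25, and 12 rose and 1 fell in the knockout. Of all tested genes 23.6% then rose in wild type, and 29.6% rose and 27.8% fell in the knockout. Microglia and macrophages also express Cd44, Igf1, Anxa2 and Socs3, and all 8 of their markers and all 6 fibroblast markers rose in both cores. The part of these cells in the rises was not tested.

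The median of these 17 was 1.97 for wild type and 2.57 for the knockout in core tissue, against -0.03 and -0.01 for all tested genes. In the peri-infarct zone 4 rose in each genotype, where 3.27% of all tested genes rose in wild type and 4.42% in the knockout. Among them Cd44 rose by 2.07 ± 0.39 in wild type and 2.53 ± 0.40 in the knockout. Igf1 (2.34 ± 0.50) and Plaur (2.56 ± 0.59), a receptor of urokinase, rose in wild type, and Socs3 (2.05 ± 0.39) and Lif (2.08 ± 0.37), a cytokine of the interleukin 6 family, in the knockout. From the wild-type peri-infarct zone to the core 8 rose, where 12.3% of all tested genes did, and 5 without wild-type core replicate 3, where 4.88% did. Among them were Anxa2 (2.34 ± 0.51) and Lgals1 (2.27 ± 0.50). Ankrd1 had 0 counts in the 3 peri-infarct libraries and 0.471 CPM in the core, at least 2.71-fold higher against a floor of 3 counts per library.

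Of 21 tested genes of the growth cone and neurite cytoskeleton, the list nearest to Gap43 and Basp1, 3 rose and 2 fell in the wild-type core, where 29.1% of all tested genes rose and 11.5% fell. Marcksl1 and Marcks, which encode relatives of GAP43 and BASP1 that bind calmodulin and membrane, rose by 0.81 ± 0.12 and 0.86 ± 0.16. Dpysl3, a collapsin response mediator, rose by 1.01 ± 0.23. The same 3 genes rose in the knockout core, by 0.55 ± 0.12, 1.00 ± 0.16 and 1.19 ± 0.23, and 0 fell, where 19.7% of all tested genes rose and 3.31% fell. The genes lower in the wild-type core were Stmn1 (-0.71) and Dpysl2 (-0.83). The median of the list was -0.82 for wild type and -0.61 for the knockout, and without wild-type core replicate 3 the lower calls numbered 11 and 14, where 16.6% and 27.8% of all genes fell. The 6 pan-neuronal markers had medians of -1.22 and -0.95 in the same comparisons, and their part in the levels of this list was not tested.

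In the peri-infarct zone Marcksl1 rose by 0.55 ± 0.12 in wild type, and from there to the core Dpysl3 rose by 0.83 ± 0.23, a call lost without wild-type core replicate 3 (0.46, adjusted p = 0.094). The rises of Marcks, Marcksl1 and Dpysl3 in core tissue passed without that library in both genotypes.

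Of 10 tested genes of the DLK and JNK pathway, which runs from the damaged axon to JUN, 0 rose and 4 fell in the wild-type core, where 29.1% of all tested genes rose and 11.5% fell. Mapk9 fell by 0.93 ± 0.24, Map2k7 by 0.49 ± 0.14, Map2k4 by 0.80 ± 0.24 and Mapk8 by 1.07 ± 0.35. With edgeR 0 passed in the knockout core, where 23% of all tested genes did, with 3 at an unadjusted p under 0.05. Once wild-type core replicate 3 was left out, all 10 passed as lower in the core of both genotypes, where 16.6% of genes did in wild type and 27.8% in the knockout. The median of the list was -0.95 in wild type and -0.66 in the knockout, beside -1.22 and -0.95 for the pan-neuronal markers, whose part was not tested.

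Of 11 tested genes of the Nogo receptor complex and myelin inhibitors, 2 rose in the core of both genotypes, where 29.1% of all tested genes rose in wild type and 19.7% in the knockout. Rhoa and Rock1, the small GTPase and kinase that act below the Nogo receptor and in most cell types, rose by 1.35 ± 0.25 and 0.74 ± 0.16 in wild type and by 0.88 ± 0.25 and 0.70 ± 0.16 in the knockout. Rock2 fell by 0.81 ± 0.21 in the wild-type core. From the peri-infarct zone to the wild-type core Rhoa rose by 0.86 ± 0.25 (adjusted p = 0.041), and by 0.35 without wild-type core replicate 3 (adjusted p = 0.023).

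The co-receptor Lingo1 differed in the core by -1.06 ± 0.79 in wild type and by -1.19 ± 0.79 in the knockout, and the ligands Mag and Omg by -0.84 and -0.98 in wild type, none of which passed with 18 libraries. When wild-type core replicate 3 was left out, Lingo1 (-1.20, adjusted p = 0.00021) and Omg (-0.71, adjusted p = 3.5e-06) passed in the knockout core, as did Rtn4r. Lingo1, Mag and Omg were named after their values were seen. Of the 3 other reticulons tested, Rtn3 fell by 0.80 ± 0.26 in the wild-type core (adjusted p = 0.026), more than Rtn4 in point estimate. Leaving that library out, all 3 passed as lower in both genotypes, where 16.6% of all tested genes did in wild type and 27.8% in the knockout.

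Of 9 tested neuropeptides and galanin receptors, 0 rose and 2 fell in the wild-type core, where 29.1% of all tested genes rose and 11.5% fell. They were Tac1, which fell by 2.52 ± 0.82 (adjusted p = 0.027) and Galr1, whose call was lost without wild-type core replicate 3 (adjusted p = 0.073). Galr1, a galanin receptor, had 14 counts over the wild-type contralateral libraries, 10 of them in 1 library, and 0 over the core libraries. The core mean was at least 1.48-fold lower against a floor of 3 counts per library, a bound that rests largely on that 1 contralateral library. Tac1 is also a marker of striatal neurons, whose 7 markers summed to 170.0 to 399.3 CPM in wild-type contralateral and to 7.85 to 134.3 CPM in core libraries. With edgeR 0 passed in the knockout core, where 23% of all tested genes did, with 2 at an unadjusted p under 0.05. Of 10 small proline-rich and epidermal genes set beside Sprr1a, 1, Krt10, passed the filter on low counts, at -0.71 ± 0.31 in the wild-type core (adjusted p = 0.080). Between genotypes edgeR called 0 genes of any of these lists with 18 libraries, where at most 0.228% of all tested genes passed. At most 5 of a list then had an unadjusted p under 0.05. Without wild-type core replicate 3 some list genes were called. Of the 10 DLK and JNK genes, 2 were lower in the knockout core and 3 in the mean over regions. Of the 20 injury-response transcription factors, 1 was lower in the core, and 2 were higher and 3 lower in the mean. Of all tested genes 3.06% passed in the core and 7.46% in the mean.

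**Figure D4:**
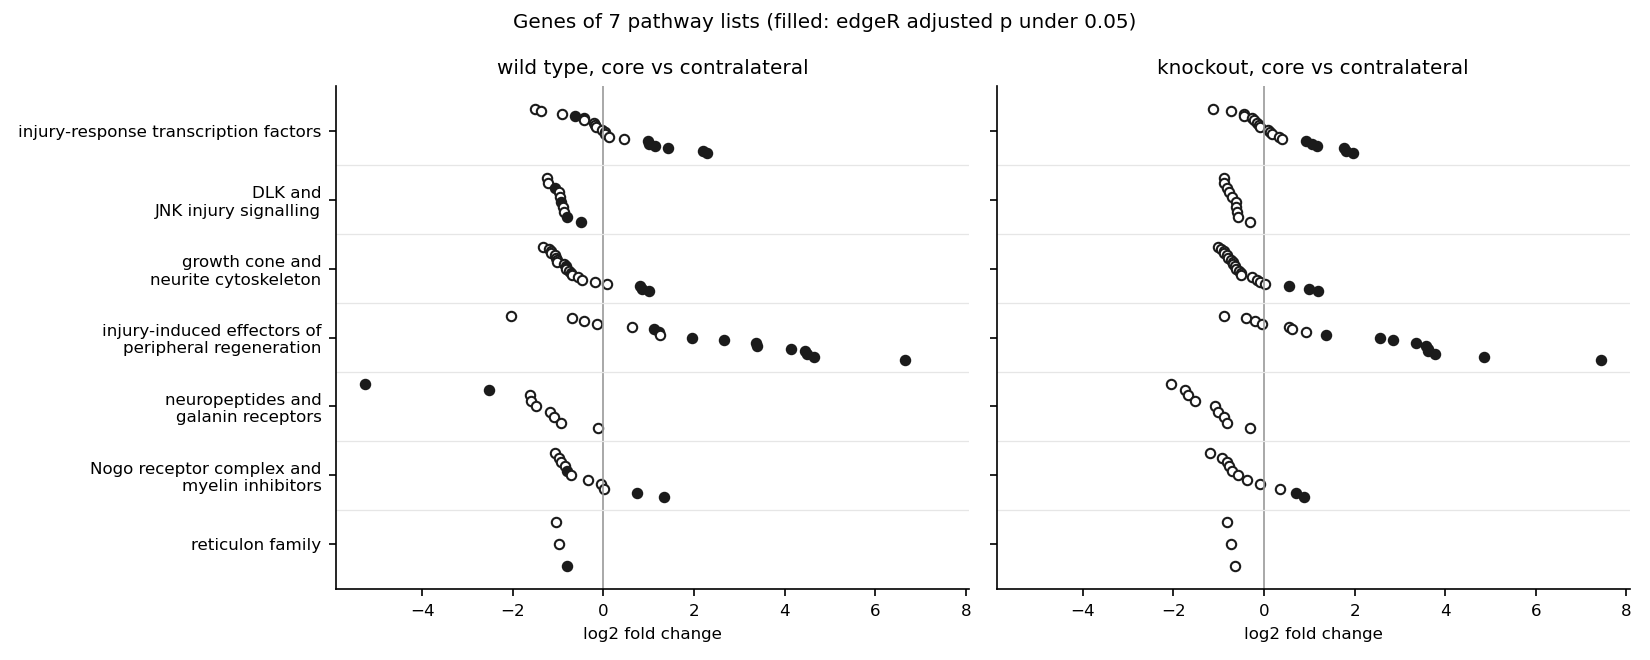
Log2 fold change of each tested gene of 7 pathway lists between core and contralateral tissue, with wild type on the left and knockout on the right (18 libraries, n = 3 a group). Filled points have an edgeR adjusted p under 0.05. The regeneration effectors have 11 filled points right of 0 in wild type and 10 in the knockout, and the DLK and JNK genes have all 10 points left of 0 in both.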

How the data were processed

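Polyadenylated RNA from 18 mouse brain samples was sequenced. Per the labels' protocols, 1 ug of total RNA from a Trizol-like reagent went into libraries made with an MGIEasy stLFR kit. Deposited were expected counts per gene (19.4% of genes, 3678 of 18922, held a value that was not whole) and a table of TPM. The deposited TPM values are scaled to transcript length and library. Without saying what each was for, the submitters' processing notes list the build GRCm39 (mm39) and the tools Bowtie2, Subread and HISAT2 2.0.4. Which of them gave the counts is not known. No use of strand is stated, so antisense and overlapping genes cannot be told apart.

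Expected counts were rounded and tested in R 4.3.3 with edgeR 4.0.16, after filterByExpr over the groups (15329 genes kept) and TMM scaling. The fit was a robust quasi-likelihood model of 6 group means, with Benjamini-Hochberg adjustment over all tested genes, called at 0.05. The design had assumed whole counts, and the tests were kept after rounding. The pipeline was run on simulated data with known changes in the wild-type P libraries. That simulation held no library like wild-type core replicate 3, so it cannot show how the fit behaves with such a library. CPM values use TMM-scaled library sizes. Alternatives were DESeq2 1.42.0, limma 3.58.1 (voom, and trend on log2(TPM + 1) and log2(TPM + 0.1)), no filter, only the groups compared, the replicate number as a block, and each library left out. Added after seeing the data were 2 motif spellings. Counting intervals used scipy 1.17.1.

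Groups and replicate numbers come from the sample titles. The labels do not say that libraries came from separate animals, so the spread behind each p-value is that between these samples and may be technical, and 3 against 3 cannot go under 0.1 by permutation. Deviations from the group mean correlated between wild-type C and P libraries of the same number at r = 0.320, 0.489 and 0.405. Between wild-type C and knockout C libraries of the same number, r was 0.306, 0.298 and -0.144. For wild-type P and I libraries it was -0.327, 0.458 and 0.087. No label states a pairing, and whether libraries of the same number came from 1 animal was not tested.

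The members and gene lists were chosen with earlier results of these data known. All 10 members are named throughout. For each pathway list, up to 3 called genes with the smallest p per regional comparison are named, and for each member the 3 genes with the highest Pearson r of log2 CPM (prior count 2), except 1 that is not reported here. Genes named beyond this rule (Mapk8, Stmn1, Dpysl2, Lingo1, Mag, Omg, Krt10) were chosen after their values were seen.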

Additional observations from a re-analysis of the deposited data

How the results depend on the processing

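Atf3 in both cores and Gal in the wild-type core kept their direction under every alternative run, although the wild-type values missed the threshold with only the groups compared (adjusted p = 0.0792 for both), and of 9 called values 0 reversed in 119 alternatives while 41 no longer passed. Members called changed as follows. DESeq2 called 1 in the knockout peri-infarct zone, 4 in the knockout core, 1 between knockout core and peri-infarct zone and 2 in the genotype mean. Over all genes it called 1118, 4570, 895 and 420 of 15329 there. Between wild-type core and peri-infarct zone DESeq2 also called Rtn4 (-0.24, adjusted p = 0.016), where 3529 genes passed in all. With no filter on low counts Rtn4 lost its edgeR call in the wild-type core, where 5885 of 18849 genes passed. Limma-voom called 0 in the wild-type peri-infarct zone and 0 between wild-type core and peri-infarct zone, where 164 and 0 of 15329 genes passed. With only the groups compared, 0 were called in the wild-type core and 0 between it and the peri-infarct zone, where 0 of 14750 and 0 of 14760 genes passed. In the knockout 1, 7 and 5 were called in the peri-infarct zone, the core, and between them. There 3040 of 14848, 8384 of 14964 and 5751 of 15008 genes passed. On log2(TPM + 1) 1 was called between wild-type core and peri-infarct zone, 1 in the knockout peri-infarct zone and 2 in the knockout core. There 1034, 1222 and 3515 genes passed in all. On log2(TPM + 0.1) the counts were 0, 1 and 2, where 514, 1434 and 3409 genes passed. The replicate block within genotype gave 0 between wild-type core and peri-infarct zone, and 4 against 5 in the wild-type core, where Rtn4 lost its call. Over all genes it called 0 and 5988 in these comparisons. In the wild-type peri-infarct comparison it gave 1, with Atf3 at 2.69 (edgeR, adjusted p = 0.0325), where 553 genes passed in all. It changed no other count.

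Leaving out 1 library gave 0 to 1 calls in the wild-type peri-infarct zone, 2 to 5 in the wild-type core, 0 to 3 between them, 0 to 2 in the knockout peri-infarct zone, 1 to 6 in the knockout core, 0 to 4 between them, and 0 to 1 in the genotype mean. Over all genes the calls numbered 0 to 3016, 4426 to 8337, 0 to 5421, 56 to 3296, 2401 to 8854, 0 to 6190 and 13 to 1151, in that order. Uncalled values that changed sign that way ranged, against contralateral tissue, from -0.87 to 0.42 for Ecel1 and -0.030 to 0.49 for Sox11 (wild-type peri-infarct), -0.18 to 0.11 for Basp1 and -0.82 to 0.093 for Sox11 (wild-type core), -2.74 to 0.060 for Gal, -1.53 to 0.59 for Ecel1, -0.35 to 0.048 for Gap43 and -0.11 to 0.012 for Rtn4 (knockout peri-infarct), and -0.37 to 2.38 for Gal and -0.14 to 0.094 for Sox11 (knockout core). Between genotypes Rtn4r ranged from -0.65 to 0.38 in the core and from -0.30 to 0.049 in the mean. Basp1 between wild-type core and peri-infarct zone, 0.19 with edgeR, was -0.13 on both TPM scales. Rtn4r between genotypes was 1.40, 1.11 and 1.67 in the core and 0.39, 0.30 and 0.48 in the mean with voom and the 2 TPM scales, and 0.032 in the core with the replicate block by number. The causes were not tested. Depth limits Sprr1a, Gal and Ecel1 most, since few counts fall on them.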
